A study of Homo sapiens with 21 samples.

Results

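The 10 genes described here make, move or sense bile acids: CYP7A1, CYP27A1, CYP8B1, NR1H4, NR0B2, SLC10A1, ABCB11, ABCC2, FGF19 and SLC51B. They were chosen by symbol, for what their products do, and all 10 were found among 37637 features through their Ensembl identifiers. The genes were read in HepG2, an established human liver tumour line, in 21 RNA libraries. Cultures in triplicate stood for 24 h in DMEM without serum that held caffeine at 0.01, 0.1, 1, 10, 100 or 1000 µM, or none for the control group. All groups share the change from serum-containing to serum-free medium, the trypsin harvest, the Trizol extraction, the poly(dT) selection and the SmartScribe reverse transcription. The labels name no added bile acid or FXR ligand, and a single line kept as a monolayer holds neither bile ducts nor intestine.

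Bile acids are made from cholesterol in hepatocytes. CYP7A1 starts the classical route, CYP27A1 serves the alternative route and the side chain, and CYP8B1 sets the balance of cholic to chenodeoxycholic acid. NR1H4 encodes FXR, the nuclear receptor that binds bile acids and pairs with RXR. FXR is known to induce NR0B2 (the repressor SHP), the export pump gene ABCB11, SLC51B and, in the ileum, the hormone gene FGF19, and SHP and FGF19 in turn lower CYP7A1.

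Levels are given as CPM (each count over its TMM-scaled library size), for replicates 1, 2 and 3 in that order. Total counts ran from 23502519 to 44815552 per library. A member counts as called when edgeR's quasi-likelihood test gave a Benjamini-Hochberg adjusted p under 0.05 over the 17951 features that passed the filter on low counts. Such p-values rest on the spread between libraries of the same dose, estimated over all 21 libraries, and the triplicates may be technical. In bulk RNA fewer cells of a kind and less RNA per cell cannot be told apart. All 10 hepatocyte markers passed the filter (ALB from 6110 to 15342 CPM), and their summed level was 36883 to 44582 CPM in the controls and 29758 to 31195 CPM at 1000 µM. Among the markers of other cells, those at or near 0 were KRT7 and AQP1 (bile duct), FABP6, SLC10A2 and LCT (ileum), COL1A1, COL1A2, COL3A1, DCN and LUM (fibroblast), PTPRC and CD3E (immune), and VWF, CDH5 and STAB2 (endothelium). Other genes of these lists were read: VIL1 (457 to 778 CPM over all libraries), APOA4 (5.03 to 25.6) and FABP2 (0.995 to 3.86) of the ileal list, ACTA2 (15.2 to 51.1) and PDGFRB (2.98 to 23.5) of the fibroblast list, and CD68 (18.2 to 71.7) and CD14 (0.195 to 0.995) of the immune list. The immune list, carried by LYZ, summed to 936 to 1062 CPM in the controls and 1393 to 1919 CPM at 1000 µM. The bile duct list (KRT19, SOX9, EPCAM and SPP1) summed to 1333 to 1440 and 1508 to 1635 CPM. The ileal list summed to 591 to 791 and 465 to 531 CPM, and the fibroblast list to 37.9 to 42.8 and 33.4 to 47.8 CPM. The part of these lists in the results was not tested.

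The libraries fell into 3 sets by their mitochondrial transcripts, and the sets run through the doses. Set A holds all libraries from control to 0.1 µM and 1 µM replicates 1 and 2 (11 libraries, 9.95 to 14.2% mitochondrial counts). Set B holds 1 µM replicate 3, all 10 µM libraries, 100 µM replicate 2 and 1000 µM replicates 1 and 2 (7 libraries, 4.71 to 4.95%). Set C holds 100 µM replicates 1 and 3 and 1000 µM replicate 3 (3 libraries, 11.8 to 12.8%). No control library lies in set B or C, so each comparison of 10, 100 or 1000 µM with control also compares sets. Values with the set as a term are given beside the 1000 µM values of the 6 tested members, and comparisons made inside a set follow. Only the 1 µM group holds libraries of both set A and another set. Under the set term, each comparison of 10, 100 or 1000 µM with control therefore rests on 1 µM replicate 3 to join the sets. The SE was wider there (NR1H4 at 1000 µM, 0.22 against 0.12 without the term). The part of whatever separates the sets in any result was not tested.

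Of the 10 members, 6 passed the filter: the enzymes CYP27A1 and CYP8B1, the regulators NR1H4 and NR0B2, and the transporters ABCC2 and SLC51B. CYP7A1, SLC10A1, ABCB11 and FGF19 did not. None of the 6 was called at 0.01, 0.1, 1 or 10 µM by edgeR (background calls 0.0279%, 0%, 0.106% and 14.8% of features tested) or by DESeq2's Wald test, although 4, 0, 1 and 0 of the 6 had an unadjusted p under 0.05, as did 2698, 1701, 2811 and 5530 of the 17951 features. At 100 µM 3 of 6 were called, NR1H4 and SLC51B higher and ABCC2 lower, against 46.6% of all features (23.6% higher and 22.9% lower). With the set as a term 2 of 6 were called, ABCC2 and SLC51B, against 17.3%. At 1000 µM 3 of 6 were called, all higher, NR1H4, ABCC2 and SLC51B, against 57.6% of all features and 28.5% called higher; the same 3 were called with the set as a term (38% of all features). Without the term their share lies near the share of all features at both doses. The median log2 fold change of the 6 at 1000 µM was 0.54, beside -0.0069 over all features. It falls in the gap between CYP27A1 (0.17, not called) and ABCC2 (0.91), and describes no single member.

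**Figure D1:**
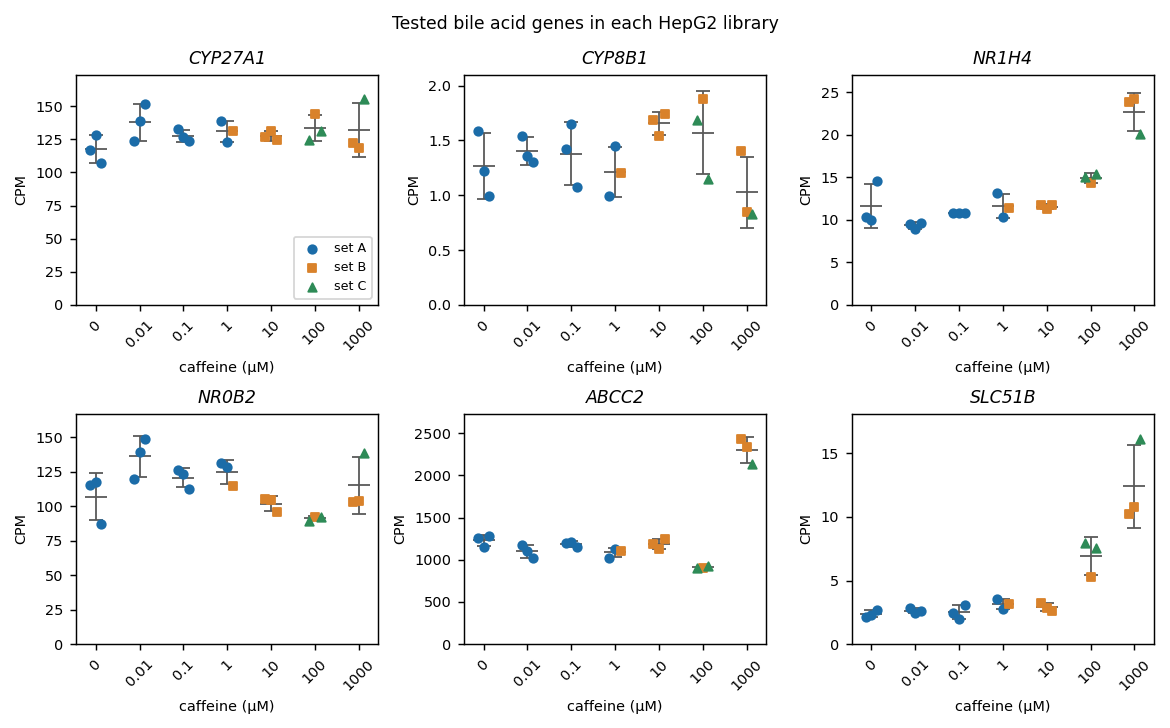
CPM of the 6 tested members in each library (vertical axis, starting at 0) against caffeine dose (horizontal axis, equal steps); the marker shape and colour give the library set and the bar the group mean. SLC51B, NR1H4 and ABCC2 have their 3 highest libraries at 1000 µM, while the CYP27A1 and CYP8B1 libraries at 1000 µM overlap the controls.

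Per transcript length, the members covered a wide span in untreated cells. ABCC2 led at 467 ± 44.9 TPM (the same share after division by exon length; mean ± SD, n = 3), followed by NR0B2 at 278 ± 64.5 TPM and CYP27A1 at 118 ± 17.8 TPM. NR1H4 stood at 9.44 ± 1.33 TPM, SLC51B at 7.52 ± 0.273 TPM and CYP8B1 at 0.862 ± 0.277 TPM. Each of these neighbours was apart in all 3 control libraries. SLC10A1, CYP7A1, FGF19 and ABCB11 lay at 0.0963, 0.0662, 0.0141 and 0.0112 TPM, and their ranges overlapped. Of the pumps that face the bile canaliculus, ABCC2, which exports conjugated organic anions, stood first among the 10. The bile salt pump ABCB11 was among the lowest, with a range that overlapped that of FGF19.

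NR1H4, SLC51B and ABCC2 were called higher than control at the highest dose, with and without the set as a term. ABCC2 was called lower at the dose below it. The stretches upstream of these 3 genes are therefore shown, from RefSeq (GRCh38.p14). They run 5′ to 3′ on the + strand that all 3 genes use. SLC51B lies at chr15:65045370-65053396, ABCC2 at chr10:99782640-99852594 and NR1H4 at chr12:100473708-100564413 in GENCODE 29 (GRCh38). Capitals mark a match to AGGTCA, the core hexamer that many nuclear receptors bind, or to CACCTG, an E-box, on either strand. The SLC51B stretch ends before the first annotated exon base, and the NR1H4 start used by RefSeq lies downstream of the first GENCODE start.
SLC51B, chr15:65045137-65045369: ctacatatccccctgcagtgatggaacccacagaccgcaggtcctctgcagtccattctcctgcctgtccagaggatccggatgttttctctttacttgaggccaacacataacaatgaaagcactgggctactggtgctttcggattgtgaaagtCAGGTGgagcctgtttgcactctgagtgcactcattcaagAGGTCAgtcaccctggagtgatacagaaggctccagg
NR1H4, chr12:100503110-100503359: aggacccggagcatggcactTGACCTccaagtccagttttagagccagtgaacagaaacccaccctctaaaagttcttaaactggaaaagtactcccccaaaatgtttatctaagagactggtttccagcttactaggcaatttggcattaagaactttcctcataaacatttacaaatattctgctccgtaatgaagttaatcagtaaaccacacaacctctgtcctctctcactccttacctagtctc
ABCC2, chr10:99782390-99782639: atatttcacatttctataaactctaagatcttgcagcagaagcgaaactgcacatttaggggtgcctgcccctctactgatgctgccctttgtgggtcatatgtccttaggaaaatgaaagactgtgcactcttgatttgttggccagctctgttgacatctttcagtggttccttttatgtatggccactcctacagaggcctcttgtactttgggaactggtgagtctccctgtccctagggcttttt
The SLC51B stretch holds AGGTCA on the + strand, starting 54 bases before the RefSeq start, and the reverse complement of CACCTG starting 94 bases before it. The NR1H4 stretch holds the reverse complement TGACCT 230 bases before its start, and the ABCC2 stretch holds neither motif. Among 6 members with an entry, SLC10A1 was the third with AGGTCA. Annotated exons cover all 250 bases searched for CYP27A1, 48 of those for SLC10A1 and 17 of those for SLC51B. In 250-base stretches before all 35116 starts, 12.1% held AGGTCA and 17.5% CACCTG. The inverted repeat IR1 (AGGTCA, 1 free base and its reverse complement), the consensus of FXR with RXR, was in none of the 6 and in none of the 35116. A looser IR1, with the third and the fourth base of each hexamer left free, was in 0.439% of all and none of the 6. The direct repeat DR1 of AGGTCA with 1 free base (0.0171% of all), the LRH-1 site TCAAGGTCA (0.319%), the cAMP element TGACGTCA (1.65%), its core TGACG (21.2%) and the forkhead site TGTTTAC (2.98%) also had no match in the 6. A missing match says only that these letters are not in this window, and a match is a description, not a site.

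FXR itself rose at the 2 highest doses. NR1H4 read 10.3, 9.97 and 14.6 CPM in the controls, 15.0, 14.3 and 15.4 CPM at 100 µM and 23.8, 24.2 and 20.1 CPM at 1000 µM. Every 1000 µM library lay above every other library (28.1% of all features had 3 libraries at 1000 µM above 3 controls), while at 100 µM the lowest library fell under the highest control. Between 0.01 and 10 µM the libraries read 8.92 to 13.1 CPM. At 0.01 µM all 3 (9.48, 8.92 and 9.65 CPM) lay below the controls, a pattern in 13% of all features, with a log2 fold change of -0.31 ± 0.12 that was not called (edgeR adjusted p = 0.26). The log2 fold change against control was 0.97 ± 0.12 (SE) at 1000 µM, 1.96-fold (edgeR's quasi-likelihood test, adjusted p = 1.5e-06), and 1.04 with the set as a term (adjusted p = 0.0011). At 100 µM it was 0.36 ± 0.12 (adjusted p = 0.022 in the same edgeR test), and the call ended with the set as a term (0.46, adjusted p = 0.20). That call also ended when only control and 100 µM libraries were fitted (adjusted p = 0.097) and without control replicate 1 or 2 or 100 µM replicate 1 or 3 (adjusted p from 0.051 to 0.12).

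NR0B2, the SHP gene and a standard FXR target, was called at no dose against control. It read 116, 118 and 87.3 CPM in the controls, 89.7, 92.2 and 92.2 CPM at 100 µM and 103, 104 and 139 CPM at 1000 µM. The 1000 µM libraries overlapped the controls, and control replicate 3 was the lowest of all 21 libraries. At 0.01 µM the libraries read 120, 140 and 149 CPM, all above the controls (10.2% of all features had 3 libraries above 3 controls there), with a log2 fold change of 0.35 ± 0.12 that was not called (edgeR adjusted p = 0.21). At 1000 µM the log2 fold change was 0.11 ± 0.12 (edgeR adjusted p = 0.47; 0.20 and 0.45 with the set as a term). Its sign turned without control replicate 3 (-0.019) or without 1000 µM replicate 3 (-0.054). NR0B2 had its lowest mean at 100 µM, 91.4 ± 1.45 CPM, where the log2 fold change was -0.23 (edgeR adjusted p = 0.13) and was called only without control replicate 3 (-0.34, edgeR adjusted p = 0.023).

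ABCC2, the most abundant member, moved down at 100 µM and up at 1000 µM. Its product MRP2 sends glucuronide, sulfate and glutathione conjugates into bile. The controls read 1258, 1150.0 and 1281 CPM, the 100 µM libraries 905, 901 and 931 CPM and the 1000 µM libraries 2438, 2343 and 2134 CPM. Both groups stood clear of the controls and of each other, and the 100 µM libraries were the 3 lowest of 21 (25.3% of all features had 3 libraries at 100 µM below 3 controls). From 0.01 to 10 µM the libraries read 1024 to 1253 CPM, at or below the upper controls, and at 1 µM all 3 lay below them (1024, 1130.0 and 1107 CPM, a pattern in 8.85% of all features) without a call. The log2 fold change was -0.43 ± 0.08 at 100 µM (edgeR adjusted p = 0.00012; -0.42 and 0.038 with the set as a term) and 0.91 ± 0.08 at 1000 µM (edgeR adjusted p = 6.3e-09; 0.89 and 2.9e-05 with the set as a term).

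SLC51B had the largest rise of the 6. It encodes the beta chain of OST, the carrier that releases bile acids across the basolateral membrane and needs the alpha chain from SLC51A. The controls read 2.17, 2.28 and 2.72 CPM, the 100 µM libraries 7.98, 5.27 and 7.54 CPM and the 1000 µM libraries 10.3, 10.8 and 16.2 CPM. The 3 groups did not overlap (at 100 µM 25.8% of all features had 3 libraries above 3 controls). The libraries from 0.01 to 10 µM read 1.96 to 3.55 CPM, and at 1 µM all 3 lay above the controls (3.55, 2.76 and 3.13 CPM, a pattern in 8.42% of all features), again without a call. The log2 fold change was 1.53 ± 0.20 at 100 µM, 2.89-fold (edgeR adjusted p = 5.8e-06), and 2.37 ± 0.20 at 1000 µM, 5.18-fold (edgeR adjusted p = 8.7e-09). With the set as a term it was 1.13 (edgeR adjusted p = 0.0085) and 2.16 (edgeR adjusted p = 4.7e-06). An exon of RASL12 on the other strand overlaps SLC51B, but RASL12 itself had 0 to 8 counts per library, where SLC51B had 69 or more.

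The partner SLC51A had another course. It read 3.48, 3.22 and 2.88 CPM in the controls, 7.95, 8.74 and 7.06 CPM at 100 µM and 4.18, 4.00 and 5.31 CPM at 1000 µM. Its rise was therefore larger at 100 µM (log2 fold change 1.31, edgeR adjusted p = 2.5e-07) than at 1000 µM (0.49, edgeR adjusted p = 0.0046), and from 100 to 1000 µM it fell by 0.82 on the log2 scale (edgeR adjusted p = 4.9e-05), where SLC51B rose. The 1000 µM call of SLC51A ended with the set as a term (0.41, edgeR adjusted p = 0.20).

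CYP27A1 and CYP8B1, the tested hydroxylase genes among the members, were called at no dose against control. CYP27A1 read 117, 128 and 107 CPM in the controls, 124, 144 and 132 CPM at 100 µM and 122, 118 and 155 CPM at 1000 µM. All neighbouring group ranges overlapped in the order of means, from 117 ± 10.5 CPM in the controls to 138 ± 13.9 CPM at 0.01 µM. The log2 fold change at 1000 µM was 0.17 ± 0.10 (edgeR adjusted p = 0.17; 0.12 and 0.65 with the set as a term). CYP8B1, close to 1 CPM, read 1.59, 1.22 and 0.997 CPM in the controls, 1.69, 1.88 and 1.15 CPM at 100 µM and 1.40, 0.850 and 0.829 CPM at 1000 µM. The groups overlapped, and the log2 fold change at 1000 µM was -0.29 ± 0.25 (edgeR adjusted p = 0.34; -0.15 and 0.83 with the set as a term). CYP8B1 shares exon bases with ACKR2 on the other strand. Whether the counting used strand is not given in the sources used here, and ACKR2 had -0.67 ± 0.19 at 1000 µM (edgeR adjusted p = 0.0046), from 2.26 to 1.43 CPM, a call that ended with the set as a term (-0.65 ± 0.33, edgeR adjusted p = 0.13).

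**Figure D2:**
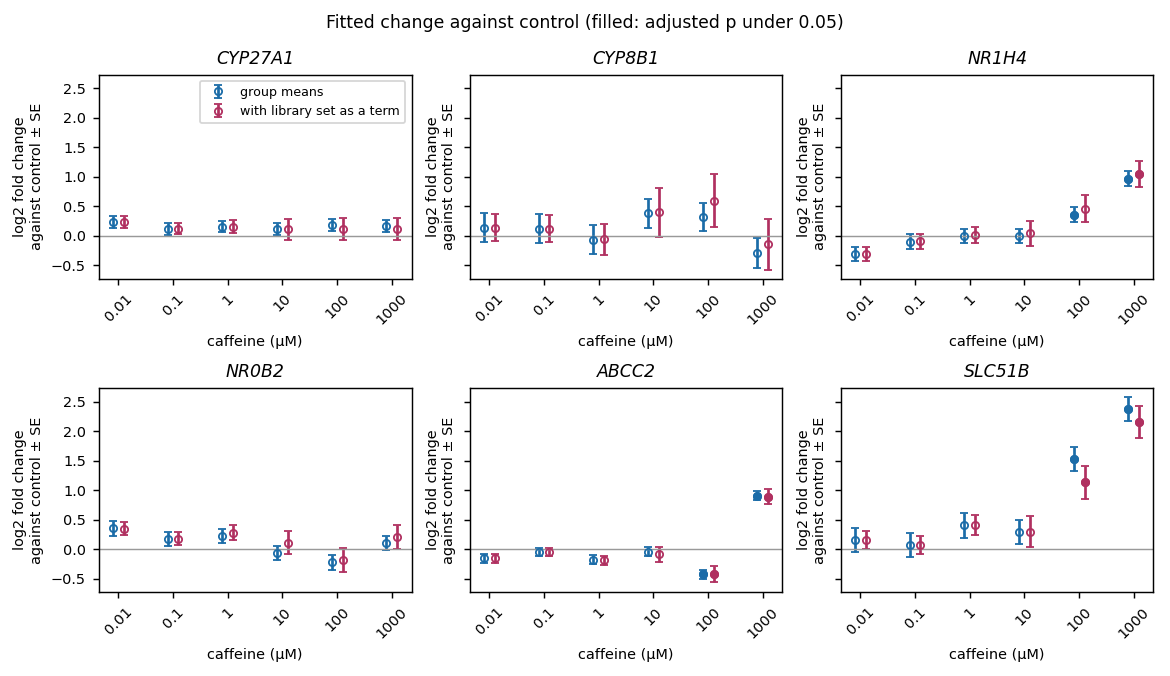
Fitted log2 fold change against control with its SE (vertical axis) by caffeine dose (horizontal axis) for the 6 tested members, without and with the library set as a term; filled points have an adjusted p under 0.05. SLC51B and ABCC2 keep filled points at 100 and 1000 µM in both fits, whereas NR1H4 at 100 µM is open once the set is a term.

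Across all 6 doses at once, the joint edgeR test called ABCC2, SLC51B, NR1H4 and NR0B2 (4 of 6, against 73.6% of all features), and the same 4 with the set as a term (59.8% of all features). NR0B2 entered with an adjusted p of 0.0049 in that edgeR test, its means running from 91.4 CPM at 100 µM to 136 CPM at 0.01 µM. A slope on dose rank was called for SLC51B (0.38 ± 0.05 log2 units per step of dose, edgeR adjusted p = 2.0e-06), NR1H4 (0.16 ± 0.03, edgeR adjusted p = 8.9e-05) and ABCC2 (0.10 ± 0.04, edgeR adjusted p = 0.024), with 55.3% of all features called. With the set as a term only SLC51B was called (0.39 ± 0.09, edgeR adjusted p = 0.035; 4.27% of all features), while NR1H4 had 0.18 (edgeR adjusted p = 0.075) and ABCC2 0.17 (edgeR adjusted p = 0.15).

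Comparisons that use no control library gave the rises at 1000 µM again. From 100 to 1000 µM, 4 of 6 members were called, all higher (44% of all features called, 21.8% higher), and in each of the 4 the 3 libraries at 1000 µM lay above the 3 at 100 µM (22.2% of all features). ABCC2 rose 2.53-fold (log2 1.34 ± 0.08, edgeR adjusted p = 7.6e-11), SLC51B 1.79-fold (0.84 ± 0.19, edgeR adjusted p = 0.0013) and NR1H4 1.53-fold (0.61 ± 0.12, edgeR adjusted p = 0.00044). NR0B2 rose 1.26-fold (0.33 ± 0.12, edgeR adjusted p = 0.031), a call that ended without any one 100 µM library or without 1000 µM replicate 3 (adjusted p from 0.055 to 0.21), without a filter on low counts (0.060) and with only those 2 groups fitted (0.091). With the set as a term, 5 of 6 were called (46.3% of all features), the fifth being CYP8B1, which was lower (-0.74 ± 0.25, edgeR adjusted p = 0.021) and had missed the threshold without the term (-0.60 ± 0.25, edgeR adjusted p = 0.057).

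Within set B, all 3 libraries at 10 µM can be set against 1000 µM replicates 1 and 2. There the same 3 members rose (60.1% of all features called, 29.7% higher): SLC51B by 1.85 ± 0.15 on the log2 scale (edgeR adjusted p = 3.9e-09), NR1H4 by 1.05 ± 0.12 (edgeR adjusted p = 4.6e-07) and ABCC2 by 1.01 ± 0.08 (edgeR adjusted p = 1.2e-09). In CPM, SLC51B went from 3.26, 2.82 and 2.64 at 10 µM to 10.3 and 10.8, and NR1H4 from 11.7, 11.2 and 11.7 to 23.8 and 24.2. NR0B2 (0.02 ± 0.11) and CYP27A1 (-0.09 ± 0.09) had values near 0 there, and CYP8B1 had -0.53 ± 0.26 (edgeR adjusted p = 0.089).

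The step from 100 to 1000 µM can be read within set B (1 library against 2) or set C (2 against 1), where the lone library is assumed to vary like the others. CYP8B1 had -0.71 in set B and -0.78 in set C, neither of them called. ABCC2 rose by 1.41 and 1.22 in these sets and SLC51B by 1.00 and 1.06 (edgeR adjusted p of 0.00059 or less in each; background 43.2% in B, 26.4% in C). NR1H4 had 0.75 in set B (edgeR adjusted p = 0.0014) and 0.40 in set C (edgeR adjusted p = 0.088). NR0B2 had 0.16 in set B (edgeR adjusted p = 0.38) and 0.61 in set C (edgeR adjusted p = 0.0030), and CYP27A1 had -0.26 and 0.28 (edgeR adjusted p = 0.076 and 0.088). No member's difference between the sets was called by edgeR (0.0947% of all features were); 2 of 6, and 2906 of the 17951 features, had an unadjusted p under 0.05, NR0B2 (-0.45 ± 0.20) and CYP27A1 (-0.54 ± 0.16, adjusted p = 0.14). CYP27A1 was called with DESeq2's Wald test, without the low-count filter, and without control replicate 3, fits that called 359 of 17951, 1393 of 35112 and 1222 of 18456 features, against 17 here.

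**Figure D3:**
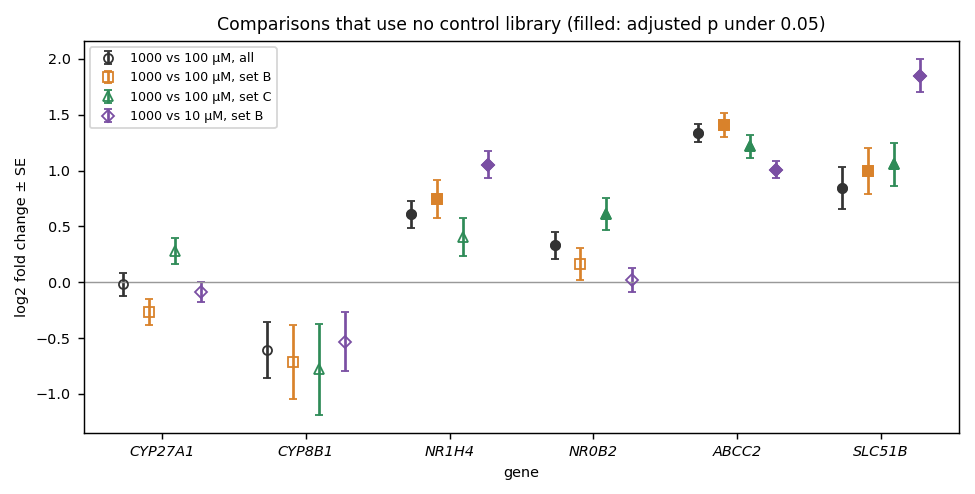
Log2 fold change with its SE (vertical axis) of the 6 tested members (horizontal axis) in comparisons with no control library in the contrast. They are 1000 against 100 µM over all libraries and within set B or set C, and 1000 against 10 µM within set B. Filled points have an adjusted p under 0.05. ABCC2 and SLC51B are filled in all 4 comparisons, and CYP27A1 lies on opposite sides of 0 in sets B and C.

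The remaining 4 members were read a few times per library or not at all, and 3 counts correspond to 0.0640 to 0.132 CPM depending on the library. CYP7A1 had 2, 1 and 3 counts in the controls and 0, 1 and 0 at 1000 µM, with 0 to 6 elsewhere. SLC10A1, the sodium-driven uptake carrier NTCP, had 1, 5 and 1 counts in the controls and 6, 1 and 0 at 1000 µM. ABCB11 had 0, 2 and 1 counts in the controls, 3, 0 and 5 at 100 µM and 3, 0 and 5 at 1000 µM. Changes of these 3 genes were not detectable at this depth: at 1000 µM the ratio of summed counts to control, scaled for library size, was 0.177 for CYP7A1 (exact 95% interval 0.00385 to 1.46), 1.06 for SLC10A1 (0.318 to 3.55) and 2.84 for ABCB11 (0.680 to 16.6). These intervals hold counting error alone, and the reads carry no molecular identifiers that would tell copies apart.

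FGF19, the ileal hormone that acts on the liver through FGFR4 and KLB, was the exception among them. It had 0, 0 and 1 counts in the controls, 3, 4 and 1 at 0.1 µM, 2, 5 and 4 at 100 µM and 12, 4 and 5 at 1000 µM. Each 1000 µM library thus had at least 4 counts, and no library from control to 10 µM had more. Summed over 3 libraries, 21 counts stood against 1, a ratio of 22.3 whose exact 95% interval runs from 3.59 to 923. At 0.1 µM the ratio was 7.81 (1.05 to 346) and at 100 µM 11.1 (1.62 to 479), and each of these ratios rests on 1 control count, so that none gives a firm size. Fitted without the low-count filter over 35112 features, FGF19 was called at 1000 µM (edgeR adjusted p = 0.0017; 9853 features called), at 100 µM (edgeR adjusted p = 0.033; 7376 features) and for 1000 against 10 µM within set B (edgeR adjusted p = 0.044; 11042 features). All controls lie in set A, so dose and set cannot be told apart in the calls at 100 and 1000 µM, which were not fitted with the set as a term. The unfiltered fit did not call it at 0.01, 0.1, 1 or 10 µM (edgeR adjusted p = 0.76, 0.83, 0.80 and 0.49), nor for 1000 against 100 µM over all libraries (0.50), within set B (0.67) or within set C (0.90; edgeR adjusted p). The level stayed at 0.218 ± 0.0828 CPM at 1000 µM.

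**Figure D4:**
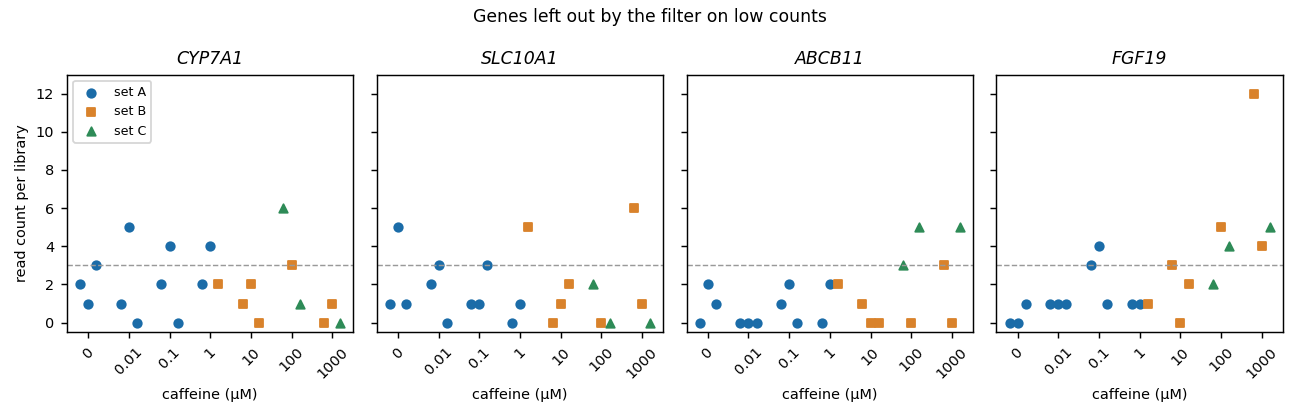
Read counts per library (vertical axis) of the 4 members left out by the low-count filter against caffeine dose (horizontal axis, equal steps), with the library set as marker; the dashed line is at 3 counts. FGF19 reaches 12 counts at 1000 µM, and CYP7A1, SLC10A1 and ABCB11 stay between 0 and 6.

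For each tested member the genes with the most similar course over the 21 libraries were sought, by Pearson's r of log2 CPM, among genes with a mean of at least 5 CPM. ABCC2 was closest to CPEB4 (r = 0.98) and DOCK4 (0.98), NR1H4 to TFPI (0.97) and PHF10 (0.97), and SLC51B to TIMM9 (0.98) and STK24 (0.98). NR0B2 was closest to ADGRG3 (0.95) and MAPKAPK2 (0.91), CYP27A1 to HDAC7 (0.86) and MTA1 (0.86), and CYP8B1 to PASK (0.77) and ZNRF3 (0.76). These values describe libraries that share doses and sets. Within the 11 libraries of set A they were 0.83 and 0.79 for ABCC2, 0.83 and 0.81 for NR1H4, 0.49 and 0.80 for SLC51B, 0.91 and 0.82 for NR0B2, 0.88 and 0.90 for CYP27A1, and 0.91 and 0.69 for CYP8B1.

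The 4 lists of further genes of bile acid handling put the members in context. Of 111 listed genes 104 passed the filter, and 74 were called at 1000 µM, 35 higher and 39 lower, where 57.6% of all features were called. The fit with the set term called 59, 24 higher and 35 lower, where 38% of all features were. At 100 µM 48 were called (46.6% of all features), and 23 with the set as a term (17.3%). Of the list genes given here as higher or lower at 100 µM, BAAT, LIPC, SLC51A, AKR1C1 and AKR1C2 were also called with that term (edgeR adjusted p of 0.0022 or less), and RXRA was not (0.47, edgeR adjusted p = 0.15). Among the list genes given with values here, the 1000 µM calls of SLC51A, GPBAR1, RXRA, KNG1, FDX1 and ABCG8 ended with the set as a term. Over all features, 5119 were called higher and 5223 lower at 1000 µM, and 3266 and 3563 with that term.

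In synthesis and conjugation, 20 of 23 genes were tested, and 10 were higher and 7 lower at 1000 µM (median log2 0.23), a balance that turned with the set as a term (7 higher and 8 lower). CYP39A1, an oxysterol 7-alpha hydroxylase, went from 8.59, 7.32 and 10.3 CPM to 20.8, 21.6 and 18.4 CPM (log2 1.22). Among the 7 that were lower were STARD4, a cholesterol carrier (-1.79), AKR1D1, the 5-beta reductase of the ring (-1.42), FDXR, which passes electrons to CYP27A1 through FDX1 (-1.37), BAAT, which joins bile acids to glycine or taurine (-1.26), and HSD3B7 (-1.16). BAAT was already lower at 100 µM (-1.18), where HSD3B7 was not called (0.22). CYP7B1, the hydroxylase of the alternative route, had 0 counts in all libraries, and CH25H and CYP46A1 had 0 or 1. AKR1C1 and AKR1C2, near-identical in sequence and so uncertain in their counts, were lower at 100 µM (-1.06 and -0.91) and higher at 1000 µM (0.64 and 1.07), as ABCC2 was.

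In transport, 19 of 22 genes were tested, and 8 were higher and 5 lower at 1000 µM (median log2 0.11), which also turned with the set as a term (5 higher and 7 lower). The export carriers ABCB1 (1.31), ABCB4, the phospholipid translocator (1.07), and ABCG2 (1.04) rose. Other export carriers of the list, named after their values were seen, went different ways. ABCC3 was higher (0.56), ABCC6 was lower (-0.78, and -0.96 with the set as a term) and ABCC4 had 0.11 without a call. Of 3 further canalicular genes, picked out after their values were seen, ATP8B1 had -0.39 (edgeR adjusted p = 0.0022), ABCG8 0.57 (0.00063, and 0.21 with the set as a term) and ABCG5 -0.16 (0.14). ABCB1 went from 157, 147 and 158 CPM to 398, 424 and 326 CPM. SLCO1B3, a basolateral uptake carrier, was called higher, but its controls (0.122, 0.104 and 0 CPM) lay near the level of 3 counts, and it read 0.791, 0.850 and 0.332 CPM at 1000 µM, so no fold is given. FABP1 (-1.77) and SLC10A7 (-0.78) fell, and the ileal SLC10A2 and FABP6 had at most 1 and 2 counts.

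In the control of FXR and CYP7A1, all 40 genes were tested, and 11 were higher and 13 lower at 1000 µM (median log2 0.10), against 9 higher and 6 lower with the set as a term. PPARGC1A, a coactivator of FXR and HNF4A, rose most, from 18.2, 16.4 and 19.4 CPM to 75.1, 77.6 and 62.7 CPM (2.0 on the log2 scale), with no call at 100 µM (-0.09). SIRT1, a deacetylase of FXR, rose by 1.21. KLB, the FGF19 coreceptor, fell by 1.09, from 69.5, 63.2 and 74.4 CPM to 32.0, 33.6 and 32.0 CPM. S1PR2, a membrane receptor for bile acids, and GPS2, a corepressor subunit, had -1.20 and -1.30. GPBAR1, another such receptor, was called lower, but its libraries at 1000 µM (0.0765, 0.0709 and 0.124 CPM, from 0.214, 0.234 and 0.383 CPM in the controls) lay at or under the level of 3 counts, so no fold is given. RXRA, the partner of FXR, was higher at 100 µM (0.82) and had 0.33 at 1000 µM. The RXRA call at 1000 µM also ended without control replicate 3 or 1000 µM replicate 1 or 3 (edgeR adjusted p from 0.050 to 0.20), and that of GPBAR1 without any 1 control, among others.

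Among 26 of 27 other genes known to respond to FXR, 6 were higher and 14 lower at 1000 µM (median log2 -0.51, beside -0.0069 over all features). The list was not split by the direction in which FXR is known to act on each gene. These counts and the median therefore give no direction of FXR action, which was not tested. AKR1B10 (2.47), PCK1 (1.33) and SQSTM1 (1.08) rose. LIPC, hepatic lipase, fell by 3.01 on the log2 scale, from 69.2, 70.5 and 64.8 CPM to 7.02, 7.62 and 10.99 CPM, and was already lower at 100 µM (-2.30). The fibrinogen genes FGA (-1.77) and FGB (-1.33), the kininogen gene KNG1 (-1.42), APOC3 (-1.14) and SDC1 (-0.95) were lower as well. With the set as a term, 3 were higher and 14 lower. FGB and SERPINA1 (-0.81) also stand on the hepatocyte marker list, whose summed level was lower at 1000 µM.

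At 10 µM the lists had 6 of 20, 6 of 19, 4 of 40 and 8 of 26 genes called in the same order (14.8% of all features), and 0 in each with the set as a term (0.0279% of all features, 5 of 17951). Of the 24 genes called there without the term, 19 were also called at 1000 µM, 14 in the same direction and 5 in the other. HSD17B4 was higher at both doses (0.33 and 0.89). Those that turned, named after their values were seen, were AKR1C1 and AKR1C2 (-0.45 and -0.34 at 10 µM), SQSTM1 (-0.29), APOC3 (0.54) and SDC1 (0.38). Among the 5 with no call at 1000 µM were SLC27A5 (0.55 at 10 µM), ABCG5 (0.36), VPS33B (0.38) and OSGIN1 (-0.49), though SLC27A5 (-0.97) and ABCG5 (-0.47) were lower at 1000 µM with the set as a term.

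**Figure D5:**
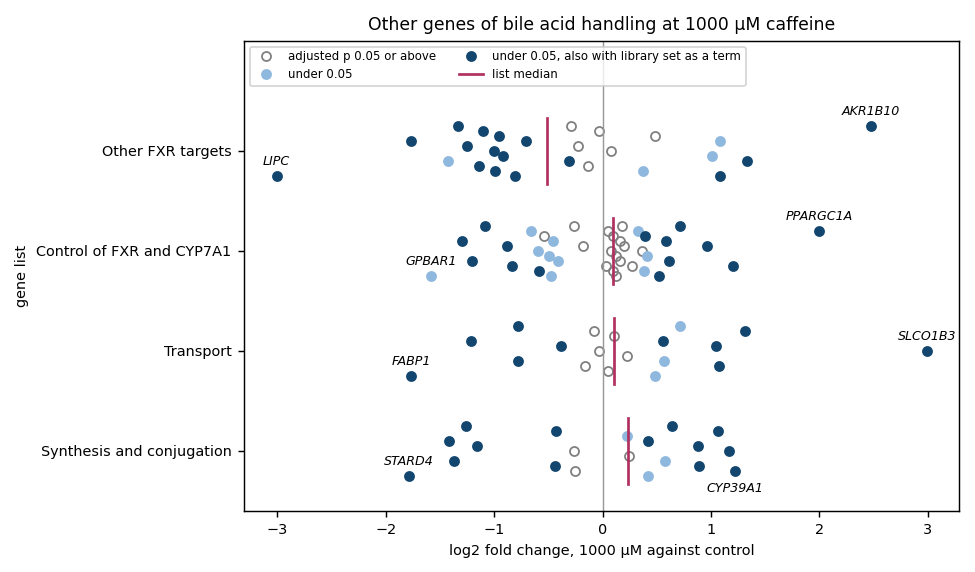
Log2 fold change of 1000 µM against control (horizontal axis) for each tested gene of the 4 lists (vertical axis, 1 band per list); shade gives the call without and with the library set as a term and the vertical bar the list median. The genes known to respond to FXR have a median of -0.51, and the other 3 lists have medians between 0.10 and 0.23.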

How the data were processed

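The submitters deposited a table of raw read counts per feature, whole numbers without normalization. Per the submitters' processing notes, HISAT2, DESeq2 and GRCh38 were used; the counting tool, annotation release and use of strand are not given in the sources used here. The table's other 21 per-sample columns were left out. Libraries were grouped by the dose in their titles. Symbols were matched by Ensembl identifier for 24852 features. The members and lists were chosen with earlier results of these data known. All 10 members were named. Of each list, up to 6 genes called at 1000 µM by size of change, plus any called below 100 µM, could be named; some of these are not reported here.

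Counts were filtered with filterByExpr. TMM scaling and the quasi-likelihood F-test came from edgeR 4.0.16 in R 4.3.3, robust, 2-sided, 1 mean per group over 21 libraries, with Benjamini-Hochberg adjustment over 17951 features. The SE of a log2 fold change is its size over the square root of F. TPM used exon lengths from GENCODE 29. Log2 CPM for r used a prior count of 2. The library sets came from clustering 13 mitochondrial mRNAs (centred log2 counts, average linkage), with the number of sets at the highest silhouette. The fits were tested on simulated data. Alternatives were DESeq2 1.42.0 size factors and Wald test, a minimum mean of 5 CPM, no filter, the replicate number as a block, the set as a term, set A alone, linear dose, only the groups compared, and each library left out. No pair of replicates agreed within read-counting noise (chi-square per gene of 3.45 or more over 21 pairs).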

Additional observations from a re-analysis of the deposited data

How the results depend on the processing

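The counts of members called at 0.01, 0.1, 1, 10 and 1000 µM against control stayed at 0, 0, 0, 0 and 3 without any 1 library, and at 100 µM they ran from 2 to 4. The joint test gave 4 throughout, the slope 2 to 4, 1000 against 100 µM 3 to 5, 1000 against 10 µM in set B 3 to 4, and 1000 against 100 µM 3 to 4 within set B, or 3 to 5 within set C, where the 5 came without control replicate 3. The difference between sets B and C gave 0 to 1 member, and 1 (CYP27A1) with DESeq2's Wald test (359 of 17951 features called), with no filter (1393 of 35112) and without control replicate 3 (1222 of 18456). The slope was called for 1 member once the library set was a term. Listed genes called at 1000 µM ran from 67 to 77.

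The replicate numbers do not pair the libraries: same-numbered deviations had a mean r of -0.11 to 0.15 over 21 pairs of groups, 1 of them over 0.1, and 4 of 21 libraries correlated best with their own number. With the replicate number as a block, 3 members were called at 100 µM, 3 at 1000 µM, 4 in the joint test, 3 for the slope, 5 from 100 to 1000 µM, 4 in set B against 10 µM, and 70 listed genes at 1000 µM; of all 17951 features the block called 8099, 10167, 12865, 9563, 7671 and 10610 in these 6 comparisons.

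Some signs turned. CYP27A1 from 100 to 1000 µM ran from -0.16 to 0.056 over the libraries left out and was 0.0068 with the set as a term. Over the libraries left out, the 1000 µM values ran from -0.054 to 0.18 for NR0B2, -0.13 to 0.035 for VPS33B and -0.21 to 0.091 for OSGIN1. With the set as a term, FDX1 had -0.16 and RXRA -0.020, where both had been called higher without it (0.42 and 0.33). The cause was not tested. Over all single-gene values, 1639 alternatives kept direction and side of the threshold, 42 lost a call, 8 gained one and 14 turned sign. A set term could not be added inside a set. Depth limits CYP7A1, SLC10A1, ABCB11 and FGF19.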
